A study of Caenorhabditis elegans with 46 samples.

Results

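Fasted Caenorhabditis elegans worms carrying a mutation in daf-16 were compared with fasted worms of the wild-type strain N2, using 6 Affymetrix arrays of the 46 in the series. The arrays were chosen by their labels: the 3 replicates named daf-16 and fasted, and the 3 replicates named N2 and fasted for which no hours are given. Each array measured RNA of whole worms, adults of day 4, and the labels give N2 as the strain background of the mutant. The labels give neither the lesion in daf-16 nor the fasting time of these worms, and they do not say how many worms made up a sample. Fed daf-16 and fed N2 worms of the same age, and fasted worms with a mutation in kgb-1, which encodes a JNK-type kinase, or in jun-1, which encodes an AP-1 transcription factor, served as further comparisons (3 arrays each). The study's title is about JNK and AP-1 signalling in worms that live longer under intermittent fasting, and the daf-16 comparison asks which genes differ in fasted worms when daf-16 is mutated. The labels name no second daf-16 allele and no rescued strain, so other differences between the strains cannot be told apart from the mutation.

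DAF-16 is the worm's FOXO transcription factor. When the insulin receptor DAF-2 signals, the kinases AKT-1 and AKT-2 phosphorylate DAF-16 and hold it in the cytoplasm, and when signalling falls, as in starvation, DAF-16 enters the nucleus and raises genes of stress resistance, metal handling, antimicrobial defence and fat and sugar metabolism. In whole worms a lower signal cannot tell fewer cells of a type from less RNA per cell.

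Values are probe set intensities, scaled so that the 24 arrays of the fed and fasted genotypes share 1 distribution, and array values are given in the order of replicates 1, 2 and 3. The deposited values already hold an offset of 16, so a gene near 16 has no measurable signal and its fold change is understated. Deposited median intensity was 71.9 to 85.4 in fasted daf-16 worms and 82.1 to 84.0 in fasted N2 worms. Arrays of a group correlated at 0.930 or above among fasted daf-16 worms, where replicates 1 and 2 were least alike, and at 0.974 or above among fasted N2 worms. Fasted daf-16 replicate 2 stood apart in sperm genes: the summed intensity of 44 sperm markers was 3580, 88385 and 8537 in fasted daf-16 worms, against 5626, 16959 and 5857 in fasted N2 worms. In both groups replicate 2 was the highest array for 39 of the 44 markers. By the summed intensity replicate 2 was the highest array in every other group of the 24 arrays too. The fed daf-16 arrays, used in the fed and interaction comparisons, had 4084, 97998 and 32681, against 5840, 40835 and 14813 in fed N2 worms. Counts without replicate 2 are therefore given below, and the part of sperm RNA in the other results was not tested.

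The mutated gene itself was measured by 4 probe sets. The brightest gave scaled intensities of 332, 423 and 414 in fasted daf-16 worms, against 518, 565 and 721 in fasted N2 worms, and a second gave 191, 210 and 140 in fasted daf-16 worms, against 363, 335 and 226 in fasted N2 worms. All daf-16 arrays were below all N2 arrays in all 4 probe sets. The log2 fold changes were -0.62 (SE 0.14, adjusted p = 0.0136), -0.76 (adjusted p = 0.0246), -0.51 (adjusted p = 0.0354) and -0.73 (adjusted p = 0.0863), so daf-16 RNA was lower and not absent. The 3 calls were lost in a fit without the replicate block. Since the lesion is not given, it is not known whether any probe set lies in a deleted part.

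Far more genes were lower than higher in fasted daf-16 worms. Of 22548 probe sets, 877 (3.89%) differed between fasted daf-16 and fasted N2 worms at an adjusted p under 0.05 (limma with the replicate number as a block, Benjamini-Hochberg adjustment). Of these, 675 (2.99% of all) were lower and 202 (0.896%) higher in fasted daf-16 worms. Counted as genes with 1 probe set each, 540 of 17118 (3.15%) fell and 176 (1.03%) rose, 4.18% in either direction. The falls were also the larger changes: 401 probe sets fell and 81 rose by at least 2-fold, 103 fell and 12 rose by at least 4-fold, and 29 fell and none rose by at least 8-fold. At an unadjusted p under 0.05 the 2 directions were nearly even, with 1802 probe sets lower and 1762 higher, and the median log2 fold change of all probe sets was 0.03. The called probe sets were 77.0% lower ones, against 90.0% with values as deposited (1048 calls), and without the block 471 were called, all among the 877.

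**Figure D1:**
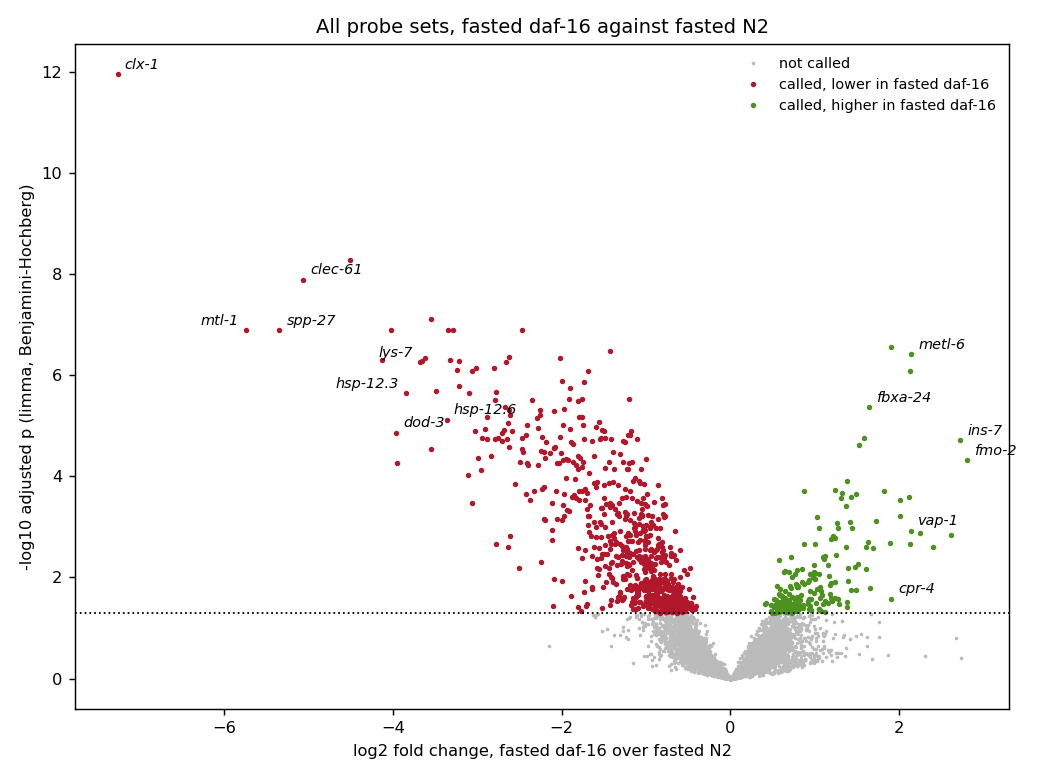
Each point is 1 of 22548 probe sets, with the log2 fold change of fasted daf-16 over fasted N2 worms across the page and -log10 of the adjusted p up the page, and the dotted line marks an adjusted p of 0.05. The 675 lower probe sets reach past a log2 fold change of -7 at clx-1, while the 202 higher ones end at 2.80 with fmo-2.

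The fit was blocked on the replicate number, so called genes tend to have pairs that go one way. Each of the 540 lower genes was lower in the daf-16 array than in the N2 array of the same replicate number in 3 of 3 pairs, and 173 of the 176 higher genes were higher in 3 of 3 pairs. Over all probe sets, called or not, 18.0% were lower and 21.2% higher in 3 of 3 pairs. The 3 daf-16 arrays lay entirely below the 3 N2 arrays in 463 of the 540 lower genes and entirely above them in 133 of the 176 higher genes. Over all probe sets, 1431 (6.35%) lay entirely below and 1712 (7.59%) entirely above, called or not. Without replicate 2 of both strains, 434 probe sets fell and 64 rose, and 409 and 46 of these were among those found with all arrays.

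Among the 12 gene-class genes that fell most were a metallothionein and 2 small heat shock genes. mtl-1, a metallothionein that binds heavy metals, had intensities of 78.2, 61.1 and 84.1 in fasted daf-16 worms, against 3634, 4489 and 3823 in fasted N2 worms, a 53.7-fold fall (log2 fold change -5.75, SE 0.46, adjusted p = 1.29e-07). hsp-12.3, a small heat shock protein, had 30.1, 62.9 and 45.3 in fasted daf-16 worms, against 301, 1335 and 632 in fasted N2 worms (log2 fold change -3.84, adjusted p = 2.29e-06). hsp-12.6, another, had 26.5, 41.8 and 21.4 in fasted daf-16 worms, against 240, 514 and 210 in fasted N2 worms (log2 fold change -3.36, adjusted p = 7.62e-06). Arrays that do not overlap were a condition for a place among the 12, so the separation itself is no added support. In these 3 genes the highest daf-16 array stayed far below the lowest N2 array. Of 10 small heat shock genes measured, hsp-12.3 and hsp-12.6 alone passed the test, both lower, beside 3.15% of all genes lower. hsp-16.2 and hsp-16.41, the classical heat-inducible members, had log2 fold changes of -0.20 (adjusted p = 0.76) and -0.21 (adjusted p = 0.79).

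The same 12 held a lysozyme, a saposin-like gene and lectins, while most members of these families did not pass the test, as counted further on. lys-7, a lysozyme of intestinal defence, had 617, 297 and 318 in fasted daf-16 worms, against 4529, 5367 and 5012 in fasted N2 worms (log2 fold change -3.68, SE 0.34, adjusted p = 5.49e-07). spp-27, of the saposin-like family of antimicrobial peptides, had 35.3, 16.3 and 24.3 in fasted daf-16 worms, against 651, 1301 and 1110 in fasted N2 worms, a 40.7-fold fall. clec-61, a C-type lectin, had 16.8, 25.7 and 22.8 in fasted daf-16 worms, against 313, 1129 and 1041 in fasted N2 worms, a 33.4-fold fall. For spp-27 and clec-61 the daf-16 arrays sat at or near the offset of 16, so both falls are understated. With 50 added to every value the log2 fold changes of spp-27 and clec-61 were -3.79 and -3.44 and both calls held.

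The remaining members of the 12 lowest genes with a gene-class name were spread over several functions. clx-1 had the largest change, with 58.7, 66.2 and 60.9 in fasted daf-16 worms, against 4325, 14087 and 14087 in fasted N2 worms (log2 fold change -7.26, SE 0.29, adjusted p = 1.11e-12). N2 replicates 2 and 3 are tied because clx-1 was the brightest probe set on both arrays and scaling gives the brightest probe set of every array the same value. The deposited intensities were 57.8, 76.3 and 60.5 in fasted daf-16 worms, against 4257, 19688 and 31213 in fasted N2 worms. On either scale the lowest N2 array was far above every daf-16 array.

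clc-24, a claudin-like membrane gene, had means of 43.9 ± 11.9 in fasted daf-16 worms and 787 ± 285 in fasted N2 worms (SD, n = 3 each; log2 fold change -4.13). cyp-34A9, a cytochrome P450, averaged 77.8 ± 7.88 in fasted daf-16 worms and 919 ± 188 in fasted N2 worms (log2 fold change -3.55), and dod-3 averaged 45.9 ± 17.6 in fasted daf-16 worms and 795 ± 581 in fasted N2 worms (log2 fold change -3.96). mbug-1 averaged 103 ± 65.4 in fasted daf-16 worms and 1371 ± 102 in fasted N2 worms (log2 fold change -3.95). All of these groups were apart, as the choice of the 12 required. clec-137, a C-type lectin, averaged 20.2 ± 3.01 in fasted daf-16 worms, near the offset, and 233 ± 176 in fasted N2 worms (log2 fold change -3.25). Among genes known only by a sequence name, Y51B9A.8 (log2 fold change -4.02), C48B4.12 (-3.66), F09C6.10 (-3.55) and F15E6.4 (-3.49) fell most. All 12 gene-class genes and these 4 stayed past the threshold without replicate 2 of both strains and without replicate 3 of both strains.

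**Figure D2:**
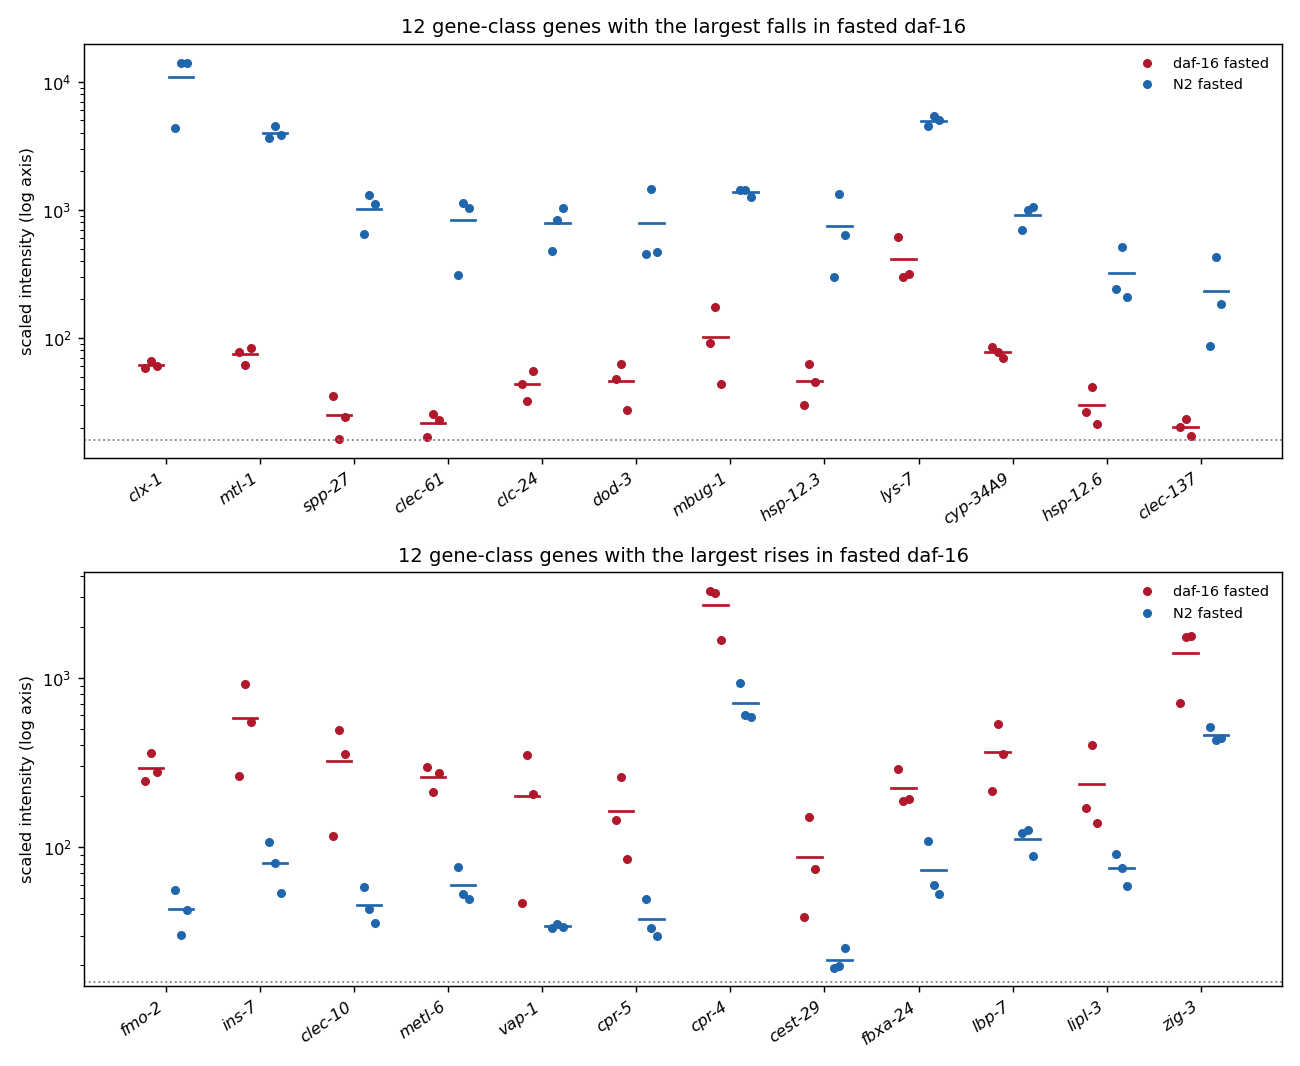
Scaled intensity on a log axis in each of the 3 fasted daf-16 arrays (red, left) and the 3 fasted N2 arrays (blue, right), with bars at the group means and a dotted line at the offset of 16, for the 12 gene-class genes that fell most (top) and the 12 that rose most (bottom). In every gene the groups are apart, which was a condition for being shown. The gaps are wide in the top panel. For vap-1 the gap is small: its lowest daf-16 array is at 46.8, against 35.3 in the highest N2 array.

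Genes known as activated by DAF-16 fell as a group against fasted N2 worms. Of 32 listed, 26 were measured, and 16 were lower and none higher in fasted daf-16 worms, beside 3.15% of all genes lower. The median log2 fold change of the 26 was -1.52, beside 0.05 over all genes, and 25 of the 26 were below 0. Besides mtl-1, dod-3, lys-7 and the 2 small heat shock genes, the called members were thn-1, a thaumatin-like defence gene (-2.95), cdr-2, of a cadmium-responsive family (-2.84), nnt-1, a mitochondrial transhydrogenase that makes NADPH (-2.63), dod-6 (-2.62), hil-1, a linker histone (-2.61), sod-3, the mitochondrial manganese superoxide dismutase often used to read DAF-16 activity (-2.25), lea-1, a desiccation protein (-1.87), dao-3 (-1.61), ftn-1, a ferritin that stores iron (-1.43), ctl-2, a peroxisomal catalase (-0.98), and gpd-2, a glycolytic dehydrogenase (-0.60).

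sod-3 had intensities of 85.4, 89.4 and 121 in fasted daf-16 worms, against 186, 780 and 689 in fasted N2 worms (SE 0.29, adjusted p = 3.17e-05). hil-1 had 101, 241 and 188 in fasted daf-16 worms, against 645, 1326 and 1216 in fasted N2 worms (SE 0.29, adjusted p = 6.01e-06). The groups were apart in both genes, and N2 replicate 1 was the lowest N2 array for each. ctl-2 had 509, 891 and 580 in fasted daf-16 worms, against 873, 1685 and 1380 in fasted N2 worms, and was the 1 called member whose groups overlapped.

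The 10 members that did not pass the test were spp-12 (log2 fold change -1.02, adjusted p = 0.053), lys-8 (-0.83), aqp-1 (-0.47), sod-5 (-0.47, adjusted p = 0.063), icl-1 (-0.44), sip-1 (-0.29), hsp-16.41, hsp-16.2, spp-1 (-0.18) and scl-1 (0.74, adjusted p = 0.091). The number of called members ranged from 13 to 19 over the alternative processing choices, with none higher in any of them. Without replicate 2 of both strains it was 17. Against the other fasted mutants the group fall was smaller. Against kgb-1 worms 10 of the 26 were lower and 0 higher in daf-16 worms, with a median log2 fold change of -0.69. Against jun-1 worms 11 were lower and 2 higher, with a median of -0.29 and 18 of the 26 below 0. Of all 17118 genes 224 were lower and 301 higher against kgb-1 worms, and 220 and 402 against jun-1 worms.

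**Figure D3:**
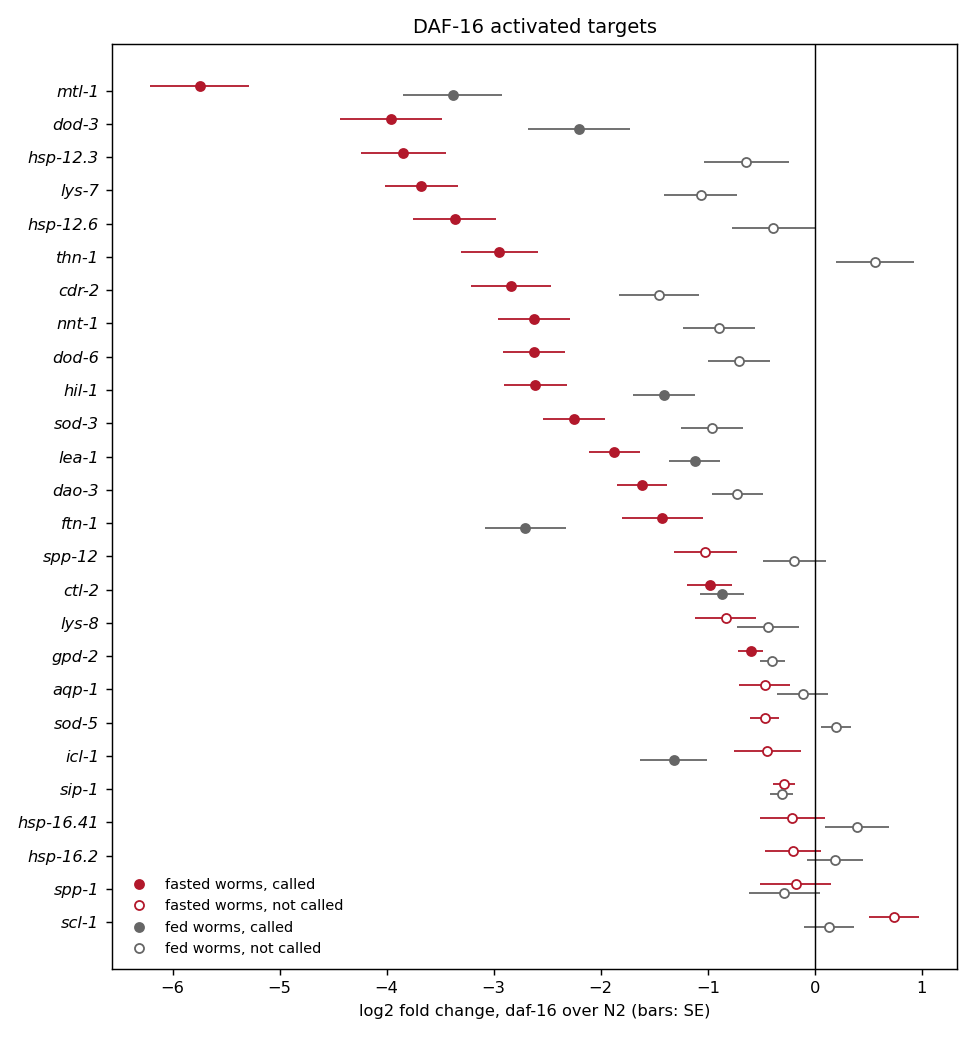
Log2 fold change of daf-16 over N2 worms, with its standard error, for the 26 measured genes known as DAF-16 activated, in fasted worms (red, upper) and fed worms (grey, lower). Filled points passed an adjusted p of 0.05: 16 genes in fasted worms and 7 in fed worms, all below 0, and scl-1 is the 1 gene above 0 in fasted worms.

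A second list held genes known to be raised when DAF-16 is missing, of the dod and pud families. Of its 10 measured genes none was higher and 3 were lower in fasted daf-16 worms, beside 1.03% and 3.15% of all genes. The median log2 fold change was -0.27, and the called members went against the name of the list. pud-3 had 44.2, 75.9 and 25.3 in fasted daf-16 worms, against 150, 765 and 437 in fasted N2 worms (log2 fold change -3.07, adjusted p = 0.000335). dod-24, a CUB-like gene of the pathogen response, had 72.0, 122 and 81.8 in fasted daf-16 worms, against 430, 522 and 656 in fasted N2 worms (log2 fold change -2.56, adjusted p = 0.000141). The groups were apart for both. dod-19 was lower by a log2 fold change of -1.53 (adjusted p = 0.00156), and pqm-1, a zinc finger factor that acts opposite to DAF-16, had 0.23 (adjusted p = 0.57).

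The genes that rose were led by fmo-2, a flavin monooxygenase whose overexpression lengthens worm life. It had 246, 361 and 276 in fasted daf-16 worms, against 56.1, 30.2 and 42.6 in fasted N2 worms (log2 fold change 2.80, SE 0.38, adjusted p = 4.74e-05). ins-7, an insulin-like peptide that activates DAF-2 and is repressed by DAF-16, had 263, 915 and 550 in fasted daf-16 worms, against 108, 80.7 and 53.2 in fasted N2 worms (log2 fold change 2.72, SE 0.34, adjusted p = 1.92e-05). metl-6, a methyltransferase-like gene, had 298, 211 and 272 in fasted daf-16 worms, against 76.2, 52.5 and 49.7 in fasted N2 worms (log2 fold change 2.14, adjusted p = 3.82e-07). Each of these 3 was apart between the strains, again a condition of their choice, and the daf-16 arrays of metl-6 lay close together.

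Among the other risen genes were 2 proteases, a lipase and a lipid-binding gene. cpr-5 and cpr-4, cathepsin B-like proteases, averaged 163 ± 87.7 and 2695 ± 890 in fasted daf-16 worms, against 37.5 ± 10.4 and 707 ± 194 in fasted N2 worms (log2 fold changes 2.00 and 1.90, adjusted p = 0.000297 and 0.0264). lipl-3, a lysosomal lipase that fasting is known to raise, had 169, 403 and 139 in fasted daf-16 worms, against 91.3, 75.3 and 58.9 in fasted N2 worms (log2 fold change 1.51, adjusted p = 0.00534). lbp-7, a fatty acid binding protein, averaged 366 ± 158 in fasted daf-16 worms and 112 ± 20.1 in fasted N2 worms (log2 fold change 1.63). The groups did not overlap in these 4, as their choice required, but the daf-16 arrays were widely spread.

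The other members of the 12 were clec-10 (log2 fold change 2.61), vap-1, of the venom-allergen-like family (2.14), cest-29, a carboxylesterase (1.82), fbxa-24, an F-box gene (1.64), and zig-3, a secreted immunoglobulin-domain protein (1.49). Of genes with a sequence name, F20A1.8 (2.13), C27C7.1 (2.12), C40H1.7 (2.12) and H11L12.1 (1.90) rose most. C27C7.1 had 1091, 1221 and 1477 in fasted daf-16 worms, against 280, 256 and 332 in fasted N2 worms, with replicates close together. In 8 of the 12 gene-class genes the highest daf-16 array was replicate 2, the one with high sperm signal. The same held for 7 of the 12 gene-class genes that fell most and for 1 of the 4 risen sequence-named genes. Without daf-16 replicate 2, 3 of the 12 risen gene-class genes lost their call: cpr-4 (adjusted p = 0.134), lipl-3 (adjusted p = 0.0526) and zig-3 (adjusted p = 0.079). Without replicate 3 of both strains 5 did: clec-10, vap-1, cpr-4, lbp-7 and zig-3. fmo-2, ins-7, metl-6, cpr-5, cest-29 and fbxa-24 stayed past the threshold in all of these.

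Within the pathway from the insulin receptor to DAF-16, 2 of 20 genes were lower and none higher, beside 3.15% and 1.03% of all genes. One was daf-16. The other was akt-2, the kinase, with 179, 97.9 and 96.3 in fasted daf-16 worms, against 249, 396 and 350 in fasted N2 worms (log2 fold change -1.45, SE 0.27, adjusted p = 0.00153). The receptor daf-2 (-0.06), the kinases age-1 (0.15), akt-1 (0.02) and sgk-1 (0.59, adjusted p = 0.086), pdk-1 (-0.75, adjusted p = 0.12) and the phosphatase daf-18 (0.26) did not pass the test. akt-2 missed the threshold without replicate 2 of both strains and without replicate 3 of both.

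Of 24 insulin-like peptide genes measured, ins-7 rose and 4 fell, beside 1.03% higher and 3.15% lower over all genes. ins-24 had 28.2, 45.9 and 59.4 in fasted daf-16 worms, against 101, 212 and 169 in fasted N2 worms (log2 fold change -1.85, adjusted p = 0.000238). ins-35 had 143, 85.8 and 58.5 in fasted daf-16 worms, against 207, 293 and 295 in fasted N2 worms (log2 fold change -1.55, adjusted p = 0.000782). These 2 genes went the opposite way to ins-7, again with no overlap. ins-31 (log2 fold change -2.12, adjusted p = 0.0018) and ins-30 (-1.14, adjusted p = 0.001) also fell, while ins-18 (0.26) and daf-28 (0.29, adjusted p = 0.66) did not pass the test.

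In the lists used here, genes of fat metabolism were lower where they changed, with few exceptions. Their counts stand beside 3.15% lower and 1.03% higher over all genes. Outside these lists acs-14, far-6 and lbp-7 rose (log2 fold changes 1.19, 0.79 and 1.63). In fatty acid beta-oxidation, the breakdown of fatty acids to acetyl-CoA, 6 of 32 genes fell and none rose. acdh-1, an acyl-CoA dehydrogenase, had 454, 448 and 989 in fasted daf-16 worms, against 3311, 3010 and 4978 in fasted N2 worms (log2 fold change -2.65, SE 0.33, adjusted p = 1.79e-05). ech-7, an enoyl-CoA hydratase, averaged 232 ± 66.9 in fasted daf-16 worms and 823 ± 283 in fasted N2 worms (log2 fold change -1.79). Both were apart between the strains. acs-2, an acyl-CoA synthetase strongly raised by fasting through another receptor, NHR-49, did not pass the test (log2 fold change -0.46, adjusted p = 0.56).

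In fatty acid synthesis and desaturation 8 of 21 genes fell and 1 rose. fat-5, a delta-9 desaturase, had 248, 827 and 781 in fasted daf-16 worms, against 1517, 2809 and 2854 in fasted N2 worms (log2 fold change -2.08, SE 0.27, adjusted p = 2.6e-05). The other delta-9 desaturases fat-7 (log2 fold change -0.91, adjusted p = 0.016) and fat-6 (-0.71, adjusted p = 0.037) had smaller falls, as did pod-2, the acetyl-CoA carboxylase (-0.85, adjusted p = 0.015). fasn-1, the fatty acid synthase, stood at 0.03 (adjusted p = 0.96). dgat-2, which makes triglyceride, was the 1 that rose (0.71, adjusted p = 0.0411), and lost its call when values were used as deposited. Without replicate 2 of both strains, or without replicate 3 of both, 2 genes of this list fell, and of the beta-oxidation list 3 and 2. Over all probe sets 434 and 310 fell in these settings, against 675 with all arrays. Against fasted kgb-1 or fasted jun-1 worms no gene of either list was lower in daf-16 worms, beside 224 and 220 of all 17118 genes. Of the synthesis and desaturation list 1 gene was higher against each mutant, and of the beta-oxidation list 1 against jun-1 worms. Over all genes 301 and 402 were higher. The median log2 fold changes there were -0.07 and 0.12 for beta-oxidation, and -0.03 and 0.13 for synthesis and desaturation.

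Of 11 lipase genes 1 fell and 1 rose, both lysosomal. lipl-4, a lipase tied to long life in germline-less worms, averaged 21.4 ± 4.54 in fasted daf-16 worms and 175 ± 47.4 in fasted N2 worms (log2 fold change -3.02, adjusted p = 7.27e-07), and lipl-3 is described above. lipl-4 was near the offset in all daf-16 arrays, and atgl-1, the adipose triglyceride lipase, had -0.33 (adjusted p = 0.36).

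Sugar metabolism showed falls at the gluconeogenic step and in genes that make or split trehalose. pck-2, a phosphoenolpyruvate carboxykinase, had 1882, 2385 and 2099 in fasted daf-16 worms, against 5202, 6189 and 5697 in fasted N2 worms (log2 fold change -1.43, SE 0.13, adjusted p = 3.31e-07), with tight replicates. pck-1, of the same family, had 93.8, 747 and 165 in fasted daf-16 worms, against 496, 1718 and 1112 in fasted N2 worms (log2 fold change -2.12, adjusted p = 0.00117), and its groups overlapped through daf-16 replicate 2. In all, 6 of 18 genes listed under glyoxylate, glucose and trehalose synthesis fell and none rose. The others were tps-2 (-1.02) and tps-1 (-0.90), which make trehalose, tre-4, a trehalase (-0.89), and pygl-1, the glycogen phosphorylase (-0.65). Of these, tre-4 and pygl-1 act in breakdown and not in synthesis. Of 16 glycolysis genes 4 fell and none rose: pyk-2, a pyruvate kinase (-1.50), gpd-3 (-0.83), aldo-2, an aldolase (-0.72), and gpd-2 (-0.60). Without replicate 3 of both strains 1 gene of the first list and 2 of the glycolysis list fell. Over all probe sets 310 then fell, against 675 with all arrays. The counts of both lists with all arrays stand beside 3.15% lower and 1.03% higher over all genes.

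Families of defence and detoxification held many of the falls. Of 202 C-type lectins 29 fell and 5 rose, of 70 cytochrome P450 genes 13 fell and none rose, of 64 UDP-glucuronosyl transferases 11 fell and 1 rose, and of 45 glutathione S-transferases 6 fell and 1 rose. These counts stand beside 3.15% lower and 1.03% higher over all genes. Without replicate 2 of both strains 18 lectins, 12 cytochrome P450 genes and 7 UDP-glucuronosyl transferases fell, and without replicate 3 of both 18, 8 and 4. With only probe sets above the median mean tested, 9, 5 and 5 fell. That setting tested fewer members of each family, and their number was not counted. Over all probe sets 434, 310 and 429 fell in these settings, against 675 in the main fit. Against fasted jun-1 worms 18 lectins, 3 cytochrome P450 genes and 11 UDP-glucuronosyl transferases were higher in daf-16 worms, and 2, 2 and 0 lower. These stand beside 402 higher and 220 lower of all 17118 genes. Against fasted kgb-1 worms 5, 0 and 2 were higher and 6, 4 and 1 lower, beside 301 higher and 224 lower of all genes. ugt-1 had 45.5, 45.3 and 26.6 in fasted daf-16 worms, against 156, 184 and 128 in fasted N2 worms (log2 fold change -2.02, adjusted p = 1.7e-05). cyp-25A1 averaged 41.1 ± 20.4 in fasted daf-16 worms and 180 ± 24.9 in fasted N2 worms (log2 fold change -2.23, adjusted p = 1.69e-05). In both genes the strains did not overlap. The 5 lectins that rose were clec-10 (2.61), clec-31 (1.38), clec-7 (1.25), clec-51 (1.24) and clec-26 (0.79). ugt-30 (0.59, adjusted p = 0.0384) and gst-44 (0.99, adjusted p = 0.00564) were the risen members of their lists.

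Of 16 lysozymes 3 fell and none rose, and besides lys-7 the clearest was ilys-3, an invertebrate-type lysozyme, with 162, 397 and 84.2 in fasted daf-16 worms, against 1522, 1249 and 652 in fasted N2 worms (log2 fold change -2.61, adjusted p = 0.00153). Of 29 saposin-like, thaumatin-like and caenacin genes 4 fell and 1, spp-18, rose (log2 fold change 1.08, adjusted p = 0.0225). Of 23 aspartyl and cysteine proteases 9 fell and 2 rose. Aspartyl proteases made up most of the falls, with asp-17 (-2.43), asp-13 (-2.12) and asp-4, a cathepsin D-like lysosomal enzyme (-1.19, adjusted p = 1.55e-05), and the 2 that rose were cpr-4 and cpr-5. Of the proteases 7 fell and 1 rose without replicate 2 of both strains, and 4 fell and 1 rose without replicate 3 of both. Over all probe sets 434 and 310 fell in these settings, against 675 with all arrays. Against fasted jun-1 worms 8 proteases were higher and 0 lower in daf-16 worms, beside 402 higher and 220 lower of all 17118 genes. Against fasted kgb-1 worms 3 were higher and 1 lower, beside 301 higher and 224 lower of all genes. The 8 metallothionein and iron genes held 4 falls and no rise, where mtl-2, the other metallothionein, had a log2 fold change of 1.48 that did not pass the test (adjusted p = 0.15). The counts against N2 worms with all arrays in these families stand beside 3.15% lower and 1.03% higher over all genes.

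Several groups held few or no called genes, which does not show unchanged levels. Collagens ran from a log2 fold change of -1.41 to 1.11, ribosomal protein genes from -0.10 to 0.35. None of 62 cytosolic ribosomal protein genes, 35 genes of mitochondrial respiration, 5 yolk protein genes, 142 collagens or 16 genes of JNK, p38 and AP-1 signalling was called in either direction by limma, with median log2 fold changes of 0.03, 0.03, -0.09, 0.03 and -0.16 in that order. At an unadjusted p under 0.05 there were 1 ribosomal and 1 respiration gene higher, no yolk gene, 8 collagens higher and 4 lower, and 2 signalling genes lower. Over all genes 3.15% were lower and 1.03% higher. Near that share, 1 of 25 autophagy genes fell, epg-2 (-0.72, adjusted p = 0.0417). Of 243 nuclear hormone receptors 2 fell, nhr-68 (-0.97, adjusted p = 0.000579) and nhr-11 (-0.74, adjusted p = 0.0134), and nhr-21 rose (1.37, adjusted p = 0.00249). F-box genes, at 7 lower and 2 higher of 262, lay near the share over all genes. Of 23 SCF ubiquitin ligase genes 3 fell, a larger share, among them skr-5 (-1.53) and skr-4 (-1.08), adaptors of the Skp1 family.

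Tissue markers were read the same way, beside 3.15% lower and 1.03% higher over all genes. Of 14 intestinal markers 4 fell and 1 rose: ges-1, the gut esterase, had 61.2, 96.0 and 72.7 in fasted daf-16 worms, against 200, 467 and 519 in fasted N2 worms (log2 fold change -2.28, adjusted p = 5.99e-05), and pept-1, the gut peptide transporter, had 164, 205 and 153 in fasted daf-16 worms, against 108, 76.6 and 74.3 in fasted N2 worms (1.02, adjusted p = 0.000626). These 2 went opposite ways, and elt-2, the master regulator of intestinal identity, had a log2 fold change of 0.15 (adjusted p = 0.78). The summed intestinal intensity ran from 8362 to 13179 in fasted daf-16 worms and from 7522 to 10504 in fasted N2 worms. Leaving out replicate 2 of both strains, or replicate 3 of both, left 1 intestinal marker lower and 1 higher. Over all probe sets 434 and 310 fell in these settings, against 675 with all arrays.

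Of 33 germline and oocyte markers 1 rose, syp-2 (0.49, adjusted p = 0.0499), and of 17 hypodermal markers 1 fell, grd-5 (-1.08, adjusted p = 0.0146). None of 20 muscle, 14 pharyngeal, 30 neuronal and 44 sperm markers was called by limma. At an unadjusted p under 0.05 there were 0 muscle markers, 3 pharyngeal and 3 sperm markers higher, and 2 neuronal markers higher and 2 lower. The sperm markers had a median log2 fold change of 0.61 with 43 of 44 above 0, and the pharyngeal markers 0.40. As the sums given above show, the sperm signal of daf-16 replicate 2 was far above that of every other fasted array of the 2 strains, while in replicate 1 the daf-16 sum lay below the N2 sum. Most markers of these whole worms were above the offset: in fasted daf-16 worms 2 sperm, 1 muscle, 3 neuronal and 2 hypodermal markers had means at or under 32, against 3, 0, 2 and 3 in fasted N2 worms.

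Fed worms of the same strains differed less. Between fed daf-16 and fed N2 worms 190 probe sets (0.843%) passed the test, 173 lower (0.767%) and 17 higher (0.0754%) in daf-16. Of the 675 probe sets lower in fasted daf-16 worms 17.6% were also lower in fed daf-16 worms, and these made up 68.8% of the 173. Of the 202 higher ones 9 (4.46%) were also higher in fed worms, 52.9% of the 17, and none was called in opposite directions. The fasted and fed comparisons share no array. The 675 had a median log2 fold change of -1.12 in fasted and -0.45 in fed worms, and 625 of them were below 0 in fed worms too.

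The difference between the fasted and the fed contrast was tested as an interaction, which 52 probe sets (0.231%) passed, 43 (0.191%) lower and 9 (0.0399%) higher in the fasted contrast. clx-1 had means of 61.9 in fasted daf-16 and 10833 in fasted N2 worms, against 70.4 in fed daf-16 and 87.2 in fed N2 worms, an interaction of -6.98 (SE 0.42, adjusted p = 2.58e-09). clec-61 (-4.52, adjusted p = 5.82e-05) and spp-27 (-3.74, adjusted p = 0.00756) came next. hsp-12.3 (-3.20, adjusted p = 0.0133) and hsp-12.6 (-2.98, adjusted p = 0.0172) were dim in fed worms of both strains, with hsp-12.6 at 19.5 in fed daf-16 and 27.4 in fed N2 worms. For these genes the N2 level was high in fasted worms and low in fed worms.

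asp-17 and thn-1 had fed differences above 0 and fasted ones below 0. asp-17 averaged 62.9 in fasted daf-16 and 353 in fasted N2 worms, against 1280 in fed daf-16 and 569 in fed N2 worms (interaction -3.67, adjusted p = 0.00225). thn-1 averaged 64.7 in fasted daf-16 and 480 in fasted N2 worms, against 77.2 in fed daf-16 and 47.4 in fed N2 worms (interaction -3.51, adjusted p = 0.0024). The fed differences of asp-17 (log2 fold change 1.24, adjusted p = 0.183) and thn-1 (0.56, adjusted p = 0.675) did not pass the test. aqp-8, an aquaporin (1.56), fbxa-24 (1.49), clec-31 (1.42), tmem-135 (1.33) and sru-32 (1.28) had the highest positive interactions among gene-class genes. Without the replicate block 20 interactions passed the test, all lower.

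Other genes were lower in daf-16 worms in both states. mtl-1 averaged 43.6 in fed daf-16 and 469 in fed N2 worms (log2 fold change -3.38, adjusted p = 0.000225), and its interaction of -2.36 did not pass the test (adjusted p = 0.218). pud-3 (-3.68 fed, interaction adjusted p = 0.94) and C48B4.12 (-3.61 fed, interaction adjusted p = 0.998) had fed differences of about the fasted size. metl-6 was raised in both, with 311 in fed daf-16 and 50.3 in fed N2 worms (log2 fold change 2.65, adjusted p = 9.4e-08). Of the 26 DAF-16 activated genes 7 were lower in fed daf-16 worms, beside 0.789% of all genes. In the interaction 4 were lower, hsp-12.3, hsp-12.6, lys-7 and thn-1, beside 0.199% of all genes. ftn-1 averaged 51.3 in fed daf-16 and 329 in fed N2 worms (-2.71 fed, interaction adjusted p = 0.606).

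**Figure D4:**
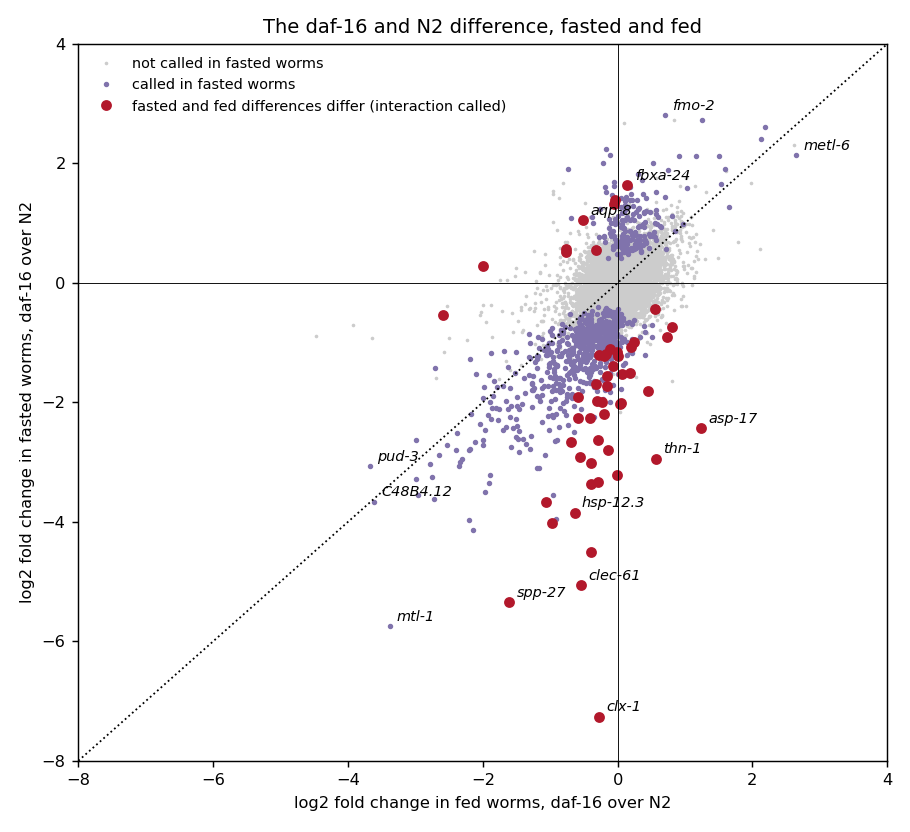
Log2 fold change of daf-16 over N2 worms in fed (across) and fasted (up) worms for 22548 probe sets, with the line of equal change dotted. The 52 probe sets that passed the interaction test (large red points) lie mostly below the line, with clx-1, clec-61 and spp-27 lowest, whereas mtl-1, C48B4.12 and metl-6 are not among them.

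Fasted daf-16 worms were also set directly against the other fasted mutants. Against kgb-1 worms 688 probe sets (3.05%) differed, 350 (1.55%) higher and 338 (1.5%) lower in daf-16, and against jun-1 worms 764 (3.39%), 479 (2.12%) higher and 285 (1.26%) lower. These comparisons share the 3 fasted daf-16 arrays with the one against N2, so the counts that join them are a description. Most of the 675 probe sets lower in daf-16 than in N2 worms, 477 (70.7%), passed the test against neither mutant. Of the rest, 145 were lower in daf-16 than in kgb-1 worms, 74 than in jun-1 worms and 47 (6.96%) than in both, and 29 were higher in daf-16 than in jun-1 worms and 2 than in kgb-1 worms. Of the 202 higher probe sets 111 passed against neither and 41 were higher in daf-16 than in both.

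mtl-1 averaged 74.5 in fasted daf-16, 1974 in kgb-1, 743 in jun-1 and 3982 in N2 worms, and was lower in daf-16 than in kgb-1 (log2 fold change -4.60, adjusted p = 3.5e-06) and jun-1 worms (-3.32, adjusted p = 0.000206). hsp-12.6 averaged 29.9 in fasted daf-16, 204 in kgb-1, 201 in jun-1 and 321 in N2 worms, and was lower in daf-16 than in kgb-1 (-2.77) and jun-1 worms (-2.68). ilys-3 averaged 214 in fasted daf-16, 1031 in kgb-1, 1056 in jun-1 and 1141 in N2 worms. In these 3 genes daf-16 had the lowest level of the 4 genotypes and the differences from both other mutants passed the test. hsp-12.3, lys-7, dod-3, thn-1, hil-1, lea-1 and pck-2 were also lower in daf-16 than in either mutant. Of the 12 gene-class genes that fell most, 7 were lower in daf-16 than in both other mutants, 3 than in kgb-1 worms alone and 2 than in neither.

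clx-1 was as low in the other mutants. It had means of 61.9 in fasted daf-16, 65.7 in kgb-1 and 85.8 in jun-1 worms, against 10833 in N2 worms, and daf-16 differed from kgb-1 by -0.07 (SE 0.29, adjusted p = 0.927) and from jun-1 by -0.47 (adjusted p = 0.434). clec-137 was at the offset in all 3 mutants, with 20.2, 17.2 and 22.2 in fasted daf-16, kgb-1 and jun-1 worms, against 233 in N2 worms. metl-6 was high in all 3, with 260, 350 and 352 in the same order, against 59.5 in N2 worms, and so were C27C7.1, with 1263, 1043 and 1116, against 290, and H11L12.1, with 900, 798 and 901, against 241. For these 5 genes the mean of N2 worms lay away from those of all 3 mutants. The tests between daf-16 and the other mutants did not pass the threshold, which does not show equal levels. C48B4.12 and F09C6.10, named above, were also near the offset in all 3 fasted mutants. For such genes an effect of the daf-16 mutation and a general difference between the N2 worms and the mutant strains cannot be told apart.

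In other genes daf-16 differed from 1 of the mutants. cyp-34A9 averaged 77.8 in fasted daf-16 and 68.6 in jun-1 worms, against 417 in kgb-1 and 919 in N2 worms (daf-16 over kgb-1 -2.28, adjusted p = 0.0065), and mbug-1 averaged 103 in fasted daf-16 and 43.2 in jun-1 worms, against 415 in kgb-1 and 1371 in N2 worms (daf-16 over kgb-1 -2.07, adjusted p = 0.0375). asp-17 averaged 62.9 in fasted daf-16 worms, above 19.3 in kgb-1 worms (log2 fold change 1.70, adjusted p = 0.0131). Of the risen genes, fmo-2 averaged 294 in fasted daf-16, 42.9 in kgb-1 and 39.3 in jun-1 worms, with N2 worms between 30.2 and 56.1. It was higher in daf-16 than in kgb-1 (2.93, adjusted p = 7.51e-05) and jun-1 worms (3.01, adjusted p = 5.69e-05). lbp-7, lipl-3, cpr-5 and fbxa-24 were also higher in daf-16 than in either mutant, which makes 5 of the 12 that rose most, while 2 were higher than in jun-1 worms alone and 5 than in neither. ins-7 averaged 576 in fasted daf-16, 341 in kgb-1, 661 in jun-1 and 80.5 in N2 worms, and daf-16 did not differ from kgb-1 (adjusted p = 0.378) or jun-1 worms (adjusted p = 0.707) past the threshold.

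**Figure D5:**
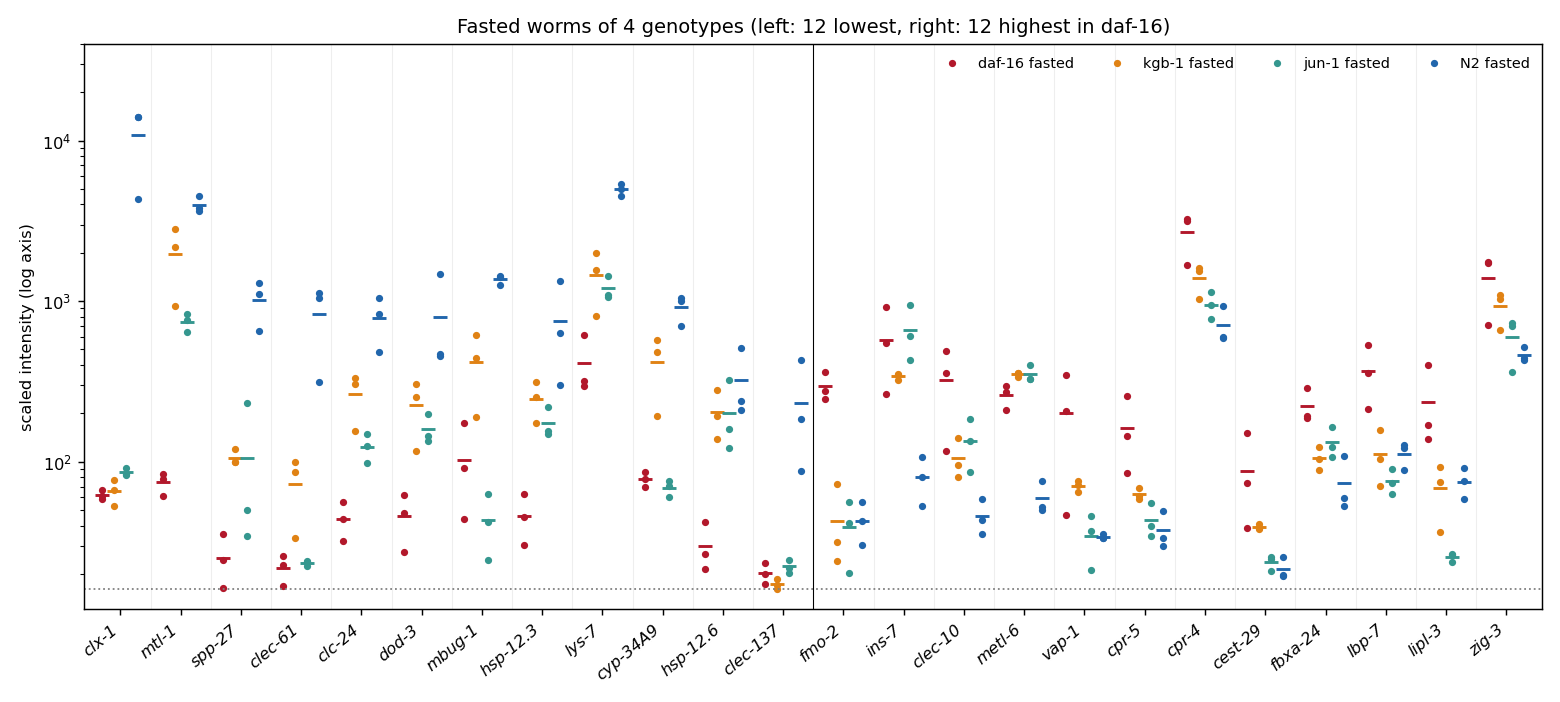
Scaled intensity on a log axis in fasted daf-16, kgb-1, jun-1 and N2 worms (3 arrays each as points, group means as bars, offset of 16 dotted) for the 12 genes lowest and the 12 highest in daf-16 against N2. daf-16 is far below the other mutants for mtl-1 and hsp-12.6, level with them for clx-1 and clec-137, and alone in its high fmo-2.

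The response of N2 worms to fasting came from other arrays, the time course, which sets N2 worms fasted for 48 h against N2 worms fed throughout (2 arrays each). Of 1035 genes raised by fasting there (called and at least 2-fold), 117 (11.3%) were lower and 28 (2.71%) higher in fasted daf-16 than in fasted N2 worms. Of 679 genes lowered by fasting, 54 (7.95%) were lower and 15 (2.21%) higher, and of the 15404 other genes 369 (2.40%) were lower and 133 (0.863%) higher. Both fasting-responsive sets thus held a larger share of called genes, in both directions, than the rest, and the raised set the largest share of falls. The median log2 fold change of the raised set was -0.21 in fasted daf-16 over fasted N2 worms, and that of the lowered set 0.04, beside 0.05 over all genes.

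Single genes differed in how fasting moved them in N2 worms. At 48 h fasting raised hsp-12.6 (log2 fold change 5.69, adjusted p = 2.4e-09), hsp-12.3 (5.56), spp-27 (4.40), clec-61 (3.53), hil-1 (3.04), sod-3 (2.13, adjusted p = 0.0076) and mtl-1 (1.55). It lowered lys-7 (-1.52, adjusted p = 6.1e-06) and mbug-1 (-2.09), which were nevertheless lower still in fasted daf-16 than in fasted N2 worms, while dod-3 stood at -0.01 (adjusted p = 0.99). clx-1, the gene with the largest fall in daf-16 worms, had 3.96 (SE 1.98, adjusted p = 0.15) and did not pass the test there. Of the 16 called DAF-16 activated genes, 12 were raised and 1 lowered by fasting in the time course at an adjusted p under 0.05 with no bound on fold, beside 2825 raised and 2502 lowered of all 17118 genes. Of the risen genes, fasting lowered ins-7 (-1.89, adjusted p = 2.6e-05) and cpr-5 (-1.94) and raised zig-3 (2.33), fbxa-24 and lipl-3 (0.96).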

How the data were processed

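RNA of whole worms was hybridised to 1 array per sample; per the labels' protocols, 100 ng of total RNA was labelled in 2 cycles. The deposited values are linear intensities. The submitters' processing notes name PLIER as the authors' tool. Its version and normalization are not given in the sources used here, and the smallest deposited value is 16.0003. After leaving out 77 of 22625 probe sets as controls, 22548 were tested. GEO's annotation gave 20766 of them 1 symbol, 887 several and 895 none listed; 20701 were matched to RefSeq genes, and 17118 genes took their brightest probe set.

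Intensities were taken as log2 and quantile scaled over the 24 arrays of 8 groups (R 4.3.3, limma 3.58.1). One coefficient per group plus the replicate number as a block was fitted (lmFit, eBayes with trend, 14 residual degrees of freedom), two-sided, with Benjamini-Hochberg adjustment over all probe sets. The block was used because the series text gives 3 independent experiments for the mutants and same-numbered fasted daf-16 and N2 arrays deviated together from their group means (correlations 0.66, 0.54 and 0.39). Beyond that, p-values measure the spread between these samples, and their number limits the precision. Taken alone and unpaired, 3 arrays against 3 could not go below an exact p of 0.1, and for 3 pairs the bound is higher.

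Named genes were the 12 lowest and 12 highest called gene-class genes whose arrays did not overlap and whose 3 pairs agreed in direction, 4 each with sequence names, 5 each of the interaction, every daf-16 probe set, every called DAF-16 activated, dod, pud and insulin pathway gene, and up to 2 called members each way of the 35 lists; others named were chosen after their values were seen. Comparison, lists and rules were chosen with earlier results of these data known. Alternatives were no block, deposited or median-centred values, 16 or 50 added, bright probe sets only, no trend, array weights, fewer arrays, and each array left out. Coordinates and sequences were not used here.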

Additional observations from a re-analysis of the deposited data

Results flagged for a closer look

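Named genes whose daf-16 and N2 difference was not the same in fasted and fed worms are given here. Each is given by the interaction on the log2 scale (fasted minus fed difference, limma, adjusted p under 0.05 over all probe sets). Of all 17118 genes 34 were lower and 8 higher in this test, so the named ones are only a part. Most of them were named for their fasted difference. Below 0, with the fasted difference the lower, were clx-1 (-6.98), clec-61 (-4.52), spp-27 (-3.74), asp-17 (-3.67), thn-1 (-3.51), hsp-12.3 (-3.20), Y51B9A.8 (-3.05), hsp-12.6 (-2.98), lipl-4 (-2.63), lys-7 (-2.61), ugt-1 (-2.06), fbxc-7 (-1.58), fbxa-6 (-1.31) and asp-4 (-1.02). fbxc-7, an F-box gene, averaged 98.1 in fasted daf-16 and 331 in fasted N2 worms, against 89.4 in fed daf-16 and 99.3 in fed N2 worms. Above 0 were aqp-8 (1.56), fbxa-24 (1.49), clec-31 (1.42), tmem-135 (1.33) and sru-32 (1.28). For tmem-135 and sru-32 neither the fasted difference (0.57, adjusted p = 0.0962, and 0.51, adjusted p = 0.148) nor the fed one (-0.76, adjusted p = 0.0526, and -0.77, adjusted p = 0.0503) passed the test alone. Without the replicate block none of these 5 passed, and under the 21 alternatives run clec-31 passed in 9, tmem-135 in 10 and aqp-8 in 18, and sru-32 in 10 of 20.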

How the results depend on the processing

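None of the 94 named probe sets changed direction under the alternatives run. The count of 877 for fasted daf-16 against fasted N2 worms was 1345 with array weights and 517 from the compared arrays alone. Without the replicate block it was 471, all among the 877, and the fed comparison, the interaction and the comparisons with kgb-1 and jun-1 had 105, 20, 175 and 218 calls. Values as deposited gave 1048 calls, of which 90.0% were lower, against 77.0% after scaling. From the compared arrays alone the interaction had 29 calls and the comparisons with kgb-1 and jun-1 186 and 103, array weights gave 1240 against kgb-1, and bright probe sets alone gave 88 fed and 32 interaction calls. Leaving out 1 array in turn, the counts ran from 479 (without N2 replicate 3) to 970 (without daf-16 replicate 1) for the fasted comparison, which also fell to 545 without daf-16 replicate 3 and 539 without N2 replicate 2. They ran from 98 (without N2 fed replicate 3) to 454 (without daf-16 fed replicate 1) for the fed one, from 16 (without N2 fed replicate 2) to 158 (without daf-16 fed replicate 1) for the interaction, from 217 (without kgb-1 replicate 3) to 1393 against kgb-1 and from 276 (without jun-1 replicate 2) to 1464 against jun-1, both highest without daf-16 fasted replicate 1. Without a replicate pair, an alternative chosen after seeing the data, the fasted count ran from 352 (pair 3) to 839, with 498 without pair 2. The cause of these shifts was not tested. Of 94 named probe sets 19 lost their call without the block and 31 without replicate pair 3. Both sets include cpr-4, ctl-2, ftn-1, dgat-2, sod-4, spp-18, syp-2, grd-5, epg-2, ugt-30, nhr-11, skr-4 and the daf-16 probe sets. Adding 16 changed no call and adding 50 changed 1, but both shrink the folds of genes near the offset, and 154 of the 675 lower probe sets have a daf-16 mean at or under 32.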

Other observations

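Gene classes with at least 4 called members in fasted daf-16 worms were looked at after the values were seen, some of them not described above. Among them, 4 of 5 kola genes, 4 of 12 nspg genes and 4 of 23 clc genes, which are claudin-like, fell with none higher. These falls and those that follow stand beside 3.15% of all genes lower. Of 30 dhs genes, short-chain dehydrogenases, 5 fell, and of 40 ttr genes, which are transthyretin-like, 6 fell and 2 rose. Of the chemoreceptor classes srh and str, 1.72% and 2.26% of the measured genes rose, near the 1.03% of all genes.

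A set of probe sets was bright in N2 worms and near the offset in all mutants. Of 37 probe sets lower in fasted daf-16 worms with a fasted N2 mean of at least 100 and a fasted daf-16 mean at or under 32, 21 were also at or under 32 in fasted kgb-1 and fasted jun-1 worms, 16 of them in all 3 fed mutants too. These bounds were chosen after the values were seen. They include clec-208, with means of 19.4, 19.4 and 17.6 in fasted daf-16, kgb-1 and jun-1 worms, against 312 in fasted N2 worms, and C48B4.12, with 22.6, 20.4 and 18.3, against 341. In the N2 time course arrays, which belong to another set, the 21 had mean intensities from 46.4 to 191.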
